A study of Mus musculus with 8 samples.

Results

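The glutathione S-transferase family was read here through 10 genes of 3 classes, Gsta2, Gsta3 and Gsta4 (alpha), Gstm1, Gstm2, Gstm3, Gstm4 and Gstm6 (mu) and Gstt1 and Gstt3 (theta). All probe sets that the platform's gene table gives to these symbols were taken, whatever their values. They were 16 of the 45037 probe sets that are not controls, and the 10 genes were among 18193 genes with a probe set. Of the 16 probe sets, 15 name 1 of the genes alone and 1 is shared by Gsta2, Gsta1 and Gm3776 and is given apart. All 10 genes passed the filter on dim genes, as did 12112 of the 18193.

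Mouse livers were profiled on 8 arrays, with 2 arms of mice sampled at 4 times and 1 array per arm and time. In the MET KO + EGFRi arm, mice with floxed alleles of Met and a tamoxifen-inducible Cre (METfl/fl, with the Cre named both TamCre and ERCre in the labels) had received 5 daily tamoxifen injections of 100 µl at 10 mg/ml. Canertinib, which inhibits the EGF receptor, was added to the food of these mice, at an intended 80 mg/kg per day from 1 day before TCPOBOP. Control mice were littermates with the same floxed alleles and Cre that received corn oil alone, without tamoxifen or canertinib. Both arms were gavaged once with TCPOBOP at 3 mg/kg, at least 5 days after the last tamoxifen injection, and livers were taken on days 0, 1, 2 and 5. Met deletion was systemic and not limited to hepatocytes. Met loss, canertinib, its diet and tamoxifen cannot be told apart in any difference between the arms. No group without TCPOBOP was sampled on days 1, 2 and 5. TCPOBOP, the gavage and the passing of days therefore cannot be told apart in any change from day 0. In MET KO + EGFRi the time since canertinib began also ran with the day. The livers of a group were pooled for 1 array, the number of mice per pool is not given, and neither is whether the day 0 mice had received TCPOBOP.

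Glutathione S-transferases join the tripeptide glutathione to electrophilic compounds, among them reactive drug metabolites, epoxides and products of lipid peroxidation, and so ready them for export and excretion. Liver is the organ best known for them, with the alpha and mu classes abundant in hepatocytes and the theta class acting on small halogenated molecules. TCPOBOP is a potent agonist of the mouse constitutive androstane receptor (CAR, gene Nr1i3), a nuclear receptor of hepatocytes that turns on drug-metabolizing enzymes, and activators of CAR and of the oxidant sensor NRF2 (gene Nfe2l2) are each known to raise transferase transcripts in mouse liver. The receptor kinases MET and EGFR bind hepatocyte growth factor and the EGF family of ligands.

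The deposited values are MAS5 signals, a linear measure of brightness in arbitrary units, scaled by the authors so that arrays share 1 trimmed mean. Array medians ran from 234.7 to 240.7 in MET KO + EGFRi and from 224.2 to 250.6 in control, and the ratio of 3' to 5' actin probe sets from 1.57 to 2.36, with the highest ratio on the day 5 array of MET KO + EGFRi. Met, the targeted gene, had signals of 1502, 1049, 2034 and 1358 in MET KO + EGFRi livers across days 0, 1, 2 and 5, against 1444, 926, 1336 and 1149 in control livers on 1 probe set, and of 639.5, 532, 650 and 389 against 786, 561, 359 and 531 on its other. Neither probe set was lower in MET KO + EGFRi on every day. Whether they lie in the deleted stretch is not given in the sources used here, so Met loss could not be checked from these signals, and the arms are called by their labels. Cyp2b10, the standard CAR target, had signals of 356.4 in MET KO + EGFRi and 444.0 in control at day 0, and of at least 32027 in the 6 later arrays. All 10 hepatocyte markers of a fixed list were measured, and their summed signal ran from 281429 to 412597 in MET KO + EGFRi and from 264114 to 424992 in control. In each arm the sum was highest on day 5, where day 0 had 281429 in MET KO + EGFRi and 264378 in control. With 8 arrays in all the precision is limited throughout, and signals of different probe sets are not compared with each other.

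**Figure D1:**
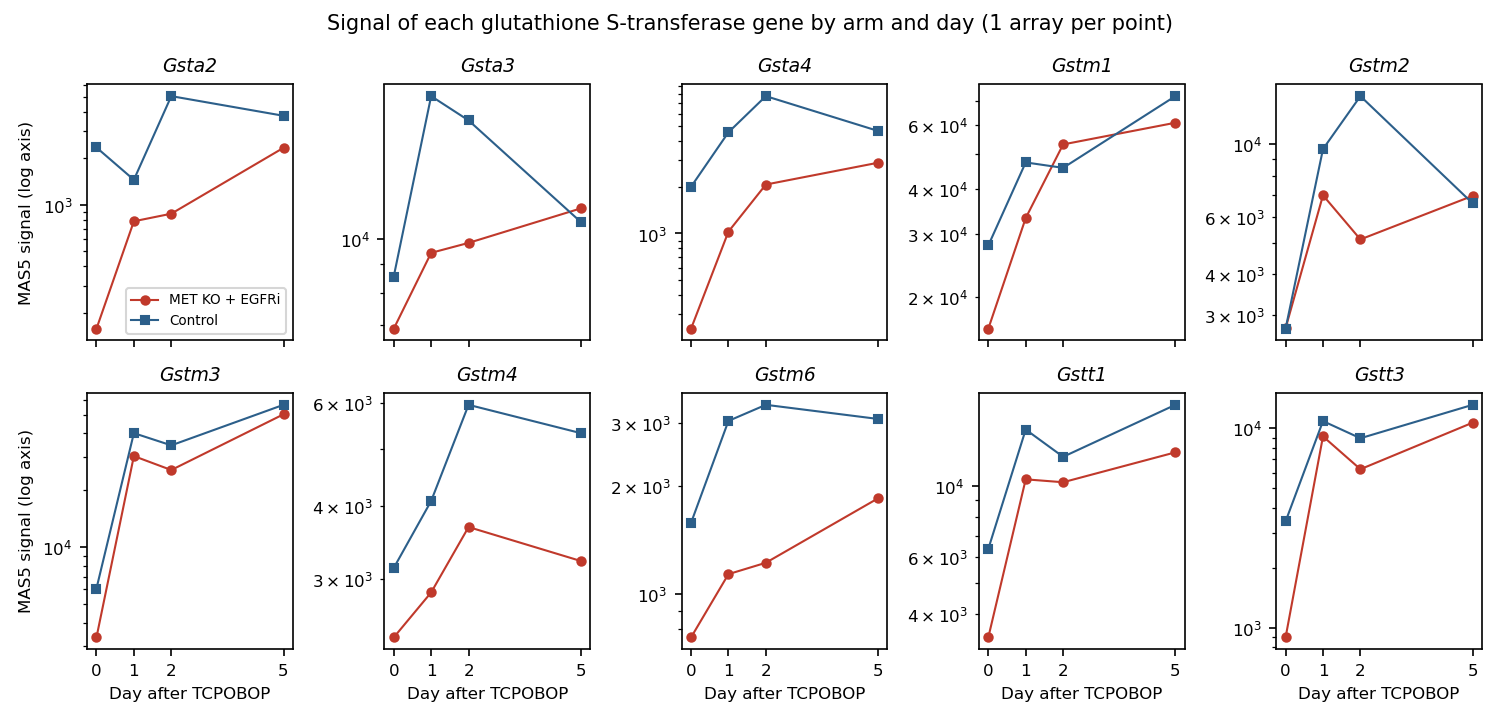
Signal of each of the 10 glutathione S-transferase genes (vertical axis, MAS5 signal, log scale, own range in each panel) by day after TCPOBOP (horizontal axis) in MET KO + EGFRi (circles) and control livers (squares), 1 pooled array per point and 1 probe set per gene. Every gene is above its day 0 value on days 1, 2 and 5 in both arms, except Gsta2 in control livers on day 1 (1451 against 2349).

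After TCPOBOP the family stood higher in both arms. Averaged over the arms, the mean of days 1, 2 and 5 was above day 0 for 10 of the 10 genes (46.8% of all genes), and 3 of them rose: Gstm3, Gstt1 and Gstt3. Of all 12112 genes, 0.421% were called higher in this comparison (limma with arm and day as terms, adjusted p under 0.05 after Benjamini-Hochberg over all genes). At an unadjusted p under 0.05 the count was 10 of 10 members against 6.21% of all genes, and the members' median log2 difference was 1.43 against -0.02 for all genes. Of the 10 hepatocyte markers 8 were higher and 2 lower in this comparison, with a median of 0.37 and 0 called. They ran from -0.36 for Tat to 0.62 for Alb. In such bulk samples more RNA per cell and more cells of a type cannot be told apart.

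Gstm3, a mu class enzyme, had signals of 3335, 30336, 25600.0 and 50459.9 in MET KO + EGFRi livers across days 0, 1, 2 and 5, against 6050.3, 40114, 34571 and 56624 in control livers. All 6 later arrays lay far above both day 0 arrays, and day 5 was the highest day of each arm on this probe set. The day 5 signal was 15.1 times that of day 0 in MET KO + EGFRi and 9.36 times in control. Averaged over the later days and both arms, Gstm3 rose by 3.06 on the log2 scale (standard error 0.17, limma adjusted p = 5.09e-04), and it stayed called whichever of the 8 arrays was left out (adjusted p at most 0.0266). This probe set is of the _s_at type, which can bind related transcripts. On the other, 1427473_at, control livers were highest on day 2 (18628, against 16082 on day 5).

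Gstt3, of the theta class, had 893, 9120.5, 6239.8 and 10687 in MET KO + EGFRi livers on the 4 days, against 3412, 10883, 8926.5 and 13136 in control livers. The MET KO + EGFRi day 0 array was the lowest of all 8 and the control day 0 array the next. Day 1 was 10.2 times day 0 in MET KO + EGFRi and 3.19 times in control. Gstt3 rose by 2.40 on the log2 scale (standard error 0.30, limma adjusted p = 0.0204). The call was lost without any 1 array other than control day 0, with adjusted p between 0.0524 and 0.0872, and without the filter on dim genes (0.0658).

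Gstt1, a theta class enzyme that acts on dichloromethane and related small molecules, had 3387, 10466, 10251 and 12689 in MET KO + EGFRi livers, against 6368, 14930.0, 12290.4 and 17810.5 in control livers. Each later array was above both day 0 arrays, and day 5 was again the highest in each arm. Its day 5 signal was 3.75 times day 0 in MET KO + EGFRi and 2.80 times in control, and it rose by 1.45 on the log2 scale (standard error 0.17, limma adjusted p = 0.0159). It remained called without either array of day 2 (0.0297 and 0.0254) and missed the threshold without any of the other 6 (0.0524 to 0.173).

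The stretches before the start sites of these 3 genes are shown because they are the members whose increase passed the test. Each is the 250 bases upstream of the RefSeq gene start (assembly GRCm38.p6), 5′ to 3′ on the gene's strand. Gstm3 lies at chr3:107969175-107969424, Gstt1 at chr10:75797732-75797981 and Gstt3 at chr10:75781423-75781672, all on the minus strand. Capitals mark the 1 match in them to the motifs searched, the string TTGCNNCAA read on the opposite strand. This string was searched as written as a C/EBP-like motif, and other forms of C/EBP sites were not searched.
Gstm3: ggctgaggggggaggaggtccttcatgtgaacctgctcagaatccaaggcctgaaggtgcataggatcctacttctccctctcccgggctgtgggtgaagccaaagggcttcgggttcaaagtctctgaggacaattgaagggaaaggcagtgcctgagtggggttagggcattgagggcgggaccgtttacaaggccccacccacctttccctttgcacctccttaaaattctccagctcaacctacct
Gstt1: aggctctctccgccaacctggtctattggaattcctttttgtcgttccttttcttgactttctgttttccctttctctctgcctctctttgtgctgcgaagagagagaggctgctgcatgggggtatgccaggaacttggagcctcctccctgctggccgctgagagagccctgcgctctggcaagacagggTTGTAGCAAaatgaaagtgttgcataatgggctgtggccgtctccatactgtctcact
Gstt3: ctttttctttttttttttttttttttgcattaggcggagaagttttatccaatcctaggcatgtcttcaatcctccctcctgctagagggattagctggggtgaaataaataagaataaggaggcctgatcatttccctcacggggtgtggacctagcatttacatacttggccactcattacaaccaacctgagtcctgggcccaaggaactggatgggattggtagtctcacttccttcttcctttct

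Of the 10 genes, 9 had an entry in the RefSeq promoter table, and their windows of 300 bases (250 before to 50 after the start) were searched on both strands. Gsta4 had no entry. The 9 genes had 14 windows, since some have several start sites, and each motif below was found in 1 of the 14. The antioxidant response element core TGACNNNGC, the element NRF2 binds, was found in 1 of the 9 genes, Gsta3, and in 12.4% of all 32851 windows. Its first base lay at -121 from the start, within chr1:21240449-21240487 on the plus strand.
Gsta3: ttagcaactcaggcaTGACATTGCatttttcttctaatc
The nuclear receptor half-site AGGTCA, the letters that CAR and its partner RXR read in repeats, was found in 1 of 9, Gstm1 (-5, chr3:108017803-108017838, minus strand), and in 16.3% of all windows.
Gstm1: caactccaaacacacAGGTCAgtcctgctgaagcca
The match of Gstt1 (-58) to TTGCNNCAA was likewise the only match among the 9, to a string that 2.08% of all windows hold. A match is a run of letters in a window and was not tested as a binding site, and elements outside these windows were not searched.

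The other 7 genes did not pass the test after TCPOBOP, with log2 differences of 0.55 for Gstm4 to 2.01 for Gsta4. Gsta4 (standard error 0.33, limma adjusted p = 0.0587) and Gstm1 (1.24, standard error 0.21, adjusted p = 0.0605) lay nearest to the threshold, and both were called when each array was centred on its median. Gstm2 had 1.49, Gsta2 1.40, Gstm6 0.88 and Gsta3 0.67, with adjusted p from 0.0947 to 0.387. Above both day 0 arrays in every later array were 6 of the 10 genes (Gsta3, Gstm1, Gstm2, Gstm3, Gstt1 and Gstt3), against 5.8% of all genes.

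Within each arm the changes from day 0 rest on single arrays and carry no test. In MET KO + EGFRi livers all 10 genes were above their day 0 value on days 1, 2 and 5 (52.0%, 51.6% and 52.3% of all genes), at least 2-fold for 7, 6 and 8 of them, where 1.6%, 2.13% and 2.82% of all genes were. In control livers 9, 10 and 10 were above day 0 (46.5%, 45.6% and 50.5% of all genes), at least 2-fold for 6 on each day (2.58%, 2.58% and 2.82% of all genes). With quantile normalization 5, 4 and 5 of the genes were 2-fold above day 0 in control, and with median centring 6, 9 and 6. The members' median log2 change was 1.47, 1.64 and 1.89 in MET KO + EGFRi and 1.11, 1.07 and 1.21 in control. The arms differed in the day of the highest signal. Day 5 was the highest MET KO + EGFRi array for 8 of 10 genes (26.9% of all genes), whereas in control livers day 2 was the highest for 5 (21.8%), day 5 for 4 (29.7%) and day 1 for Gsta3 alone (19.1%). These days hold for the probe set that stands for each gene. In control livers 1427473_at of Gstm3, 1423437_at of Gsta3 and 1425626_at and 1425627_x_at of Gstm1 were instead highest on day 2. The remaining Gstm1 probe set, 1448330_at, was highest on day 5.

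**Figure D2:**
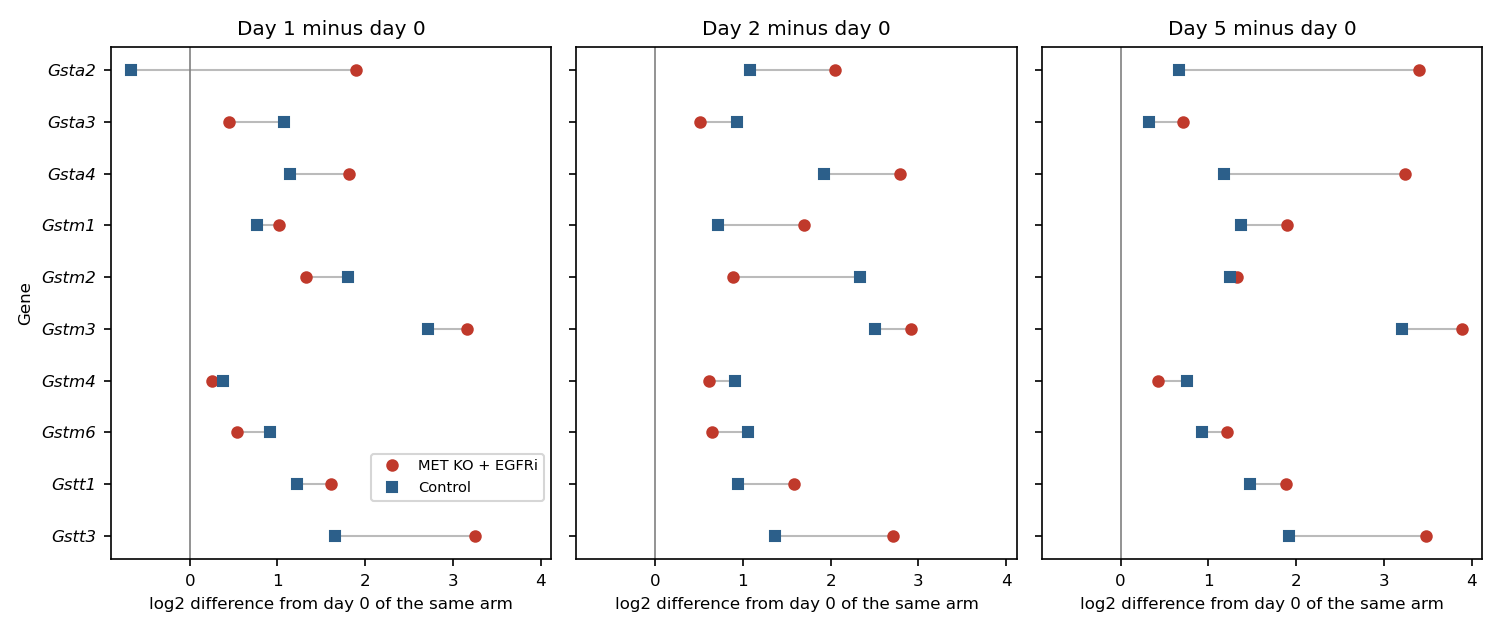
Log2 change of each gene from day 0 of its own arm (horizontal axis) on days 1, 2 and 5 (panels) in MET KO + EGFRi (circles) and control livers (squares), 1 array per point, with a grey line joining the arms. On day 5 the circles of Gsta2, Gsta4 and Gstt3 (3.40, 3.24 and 3.48) lie well to the right of the squares (0.67, 1.18 and 1.92).

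Between the arms the family stood lower in MET KO + EGFRi livers. The mean difference over the 4 days was below 0 for 10 of the 10 genes, where 49.6% of all genes were. Called lower in MET KO + EGFRi were 2 genes, Gsta4 and Gstm6. Of all genes, 0.165% were called lower and 0.413% higher, and no member was called higher. At an unadjusted p under 0.05 the count was 8 of 10 lower, against 5.99% of all genes, and the median log2 difference was -0.56 against 0.00. No member had all MET KO + EGFRi arrays below all control arrays (2.75% of all genes did). Below control on each of the 4 days were 7 of the 10, against 10.3% of all genes.

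Gsta4, the alpha class enzyme that conjugates hydroxynonenal and similar products of lipid peroxidation, had signals of 241, 1027.5, 2077 and 2879 in MET KO + EGFRi livers across days 0, 1, 2 and 5, against 2008.5, 4536, 7790.1 and 4629 in control livers. MET KO + EGFRi was the lower arm on every day, and it passed the control signal of day 0 only on days 2 and 5. The ratio of MET KO + EGFRi to control was 0.120, 0.226, 0.267 and 0.622 on the 4 days. Its day 0 signal in MET KO + EGFRi was close to the median of that array (239.3), so the first of these ratios is uncertain. Averaged over the days, Gsta4 fell by 1.84 on the log2 scale (standard error 0.29, limma adjusted p = 0.0428). The call was kept without day 5 and lost without either array, or both, of day 0, day 1 or day 2, with adjusted p from 0.0107 to 0.269 over all such fits. It was also lost in 5 of the 10 alternatives that kept all arrays (adjusted p at most 0.339).

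Gsta2, whose relatives reduce lipid hydroperoxides and conjugate many electrophiles, had 157.5, 782, 875 and 2338 in MET KO + EGFRi livers, against 2349, 1451, 5049.5 and 3767 in control livers. MET KO + EGFRi was lower on all 4 days, by ratios of 0.067 on day 0 and 0.173 on day 2 but 0.539 on day 1 and 0.620 on day 5. Its day 0 signal in MET KO + EGFRi was below the median of that array, so the first of these ratios is uncertain. With this spread between days the mean log2 difference of -1.84 had a standard error of 0.42 and a limma adjusted p of 0.147. The probe set shared by Gsta2, Gsta1 and Gm3776 had 354, 3913, 2683 and 9019.5 in MET KO + EGFRi, against 2786, 15035, 27649 and 19661 in control. When each probe set was tested by itself this one was called lower, by -2.28 (standard error 0.32, adjusted p = 0.0348), and called higher after TCPOBOP, by 3.14 (adjusted p = 0.0219). Which of the 3 transcripts carried that signal cannot be told from it.

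Gsta3, the mouse transferase best known for detoxifying the aflatoxin epoxide, had 6884, 9434, 9832 and 11347 in MET KO + EGFRi livers, against 8551, 18083.5, 16350.4 and 10724 in control livers. Control livers peaked on day 1 and were at 1.25 times their day 0 signal on day 5, whereas MET KO + EGFRi livers were highest on day 5, where the arms met. Its other probe set, 1423437_at, had 2569, 4700.1, 4890.1 and 6737 in MET KO + EGFRi livers, against 4108.5, 8690.3, 9350 and 7279 in control livers, with the control peak on day 2 and the day 5 signal of control still well above that of day 0. The mean log2 difference of Gsta3 was -0.47 (standard error 0.18, limma adjusted p = 0.363), and the other probe set gave -0.64 (adjusted p = 0.212 in the fit of single probe sets).

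Gstm6, a mu class enzyme, had 757, 1136.5, 1222.5 and 1848 in MET KO + EGFRi livers, against 1578, 3035, 3365 and 3073 in control livers. The 4 MET KO + EGFRi arrays were each below the control array of their day, and only the day 5 array exceeded the control array of day 0. Gstm6 was lower in MET KO + EGFRi by 1.12 on the log2 scale (standard error 0.15, limma adjusted p = 0.0248), with ratios between 0.363 and 0.601 over the days. As with Gsta4, the call was kept without day 5 and lost without either or both arrays of any other day (adjusted p from 0.0342 to 0.203), and in 2 of the 10 alternatives that kept all arrays, no filter on dim genes and no term for day (at most 0.192).

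Gstm4, also of the mu class, had 2385, 2847, 3683 and 3223 in MET KO + EGFRi livers, against 3135, 4082, 5959.7 and 5331 in control livers. Here the gap was small and steady, with log2 differences of -0.38, -0.51, -0.68 and -0.71 on days 0, 1, 2 and 5. The mean was -0.57 (standard error 0.13, limma adjusted p = 0.131). It was the 1 member whose lowest arm difference fell on day 5.

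Gstm1, a major mu class enzyme of mouse liver, had 16330.1, 33119, 53012 and 60887 in MET KO + EGFRi livers, against 27796, 47256, 45641 and 72168 in control livers. MET KO + EGFRi was the lower arm on days 0, 1 and 5 and the higher on day 2, and the mean difference of -0.33 (standard error 0.18, limma adjusted p = 0.532) was not called. After quantile normalization the day 2 difference of 0.22 was -0.34. With the mean of its 4 probe sets the difference was below 0 on day 2 and was 0.037 on day 5. On the day 2 arrays the Gstm1 signal ranked 31 from the top in MET KO + EGFRi and 4 in control (highest signals 74038 and 49857), on the day 5 arrays 19 and 8, and whether such bright probe sets are compressed was not tested.

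Gstm2, another mu class enzyme, had 2736, 6972.5, 5111 and 6946 in MET KO + EGFRi livers, against 2725, 9654, 14013 and 6589 in control livers. The arms were level on days 0 and 5, and control livers stood above on days 1 and 2, by a ratio of MET KO + EGFRi to control of 0.722 and 0.365. Its mean log2 difference was -0.46 (standard error 0.25, limma adjusted p = 0.514).

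On the probe sets that stand for them, the 3 genes that rose after TCPOBOP had smaller arm differences than Gsta4 and Gstm6, and none was called between the arms. The second Gstm3 probe set, 1427473_at, had -1.52 and its lowest day on day 2. Gstm3 had a mean log2 difference of -0.46, Gstt1 of -0.54 and Gstt3 of -0.73, with limma adjusted p of 0.286, 0.201 and 0.328. On these probe sets each of the 3 was lower in MET KO + EGFRi on all 4 days and had its lowest difference on day 0. For Gstt3 the day 0 difference was -1.85, and those of days 1, 2 and 5 were -0.25, -0.51 and -0.30.

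**Figure D3:**
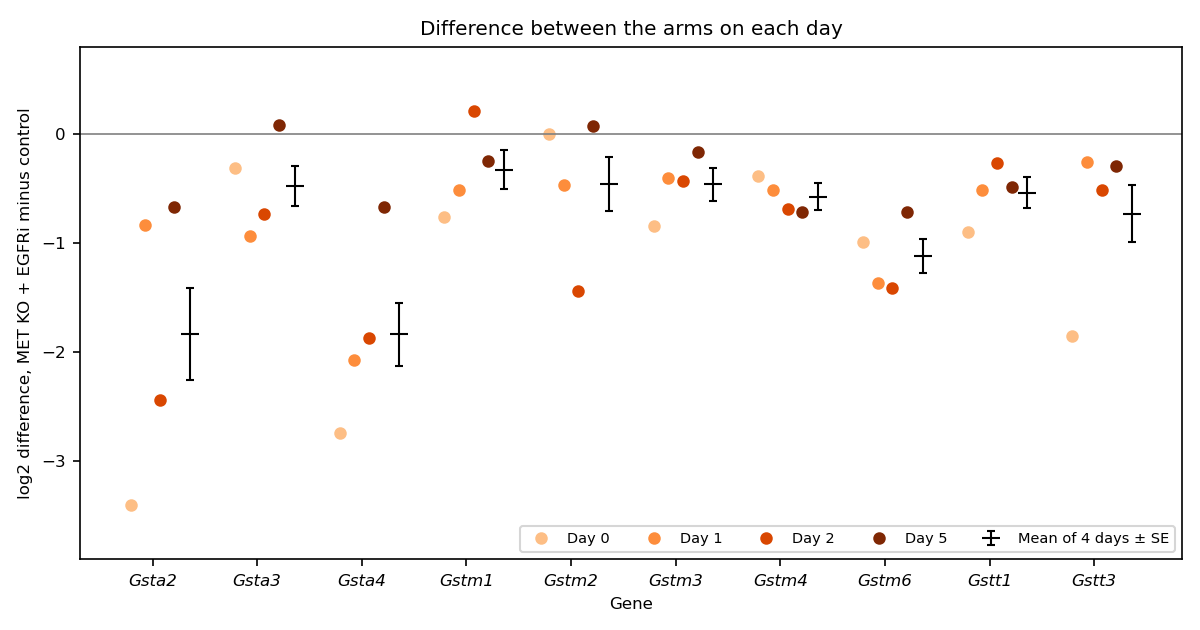
Log2 difference between MET KO + EGFRi and control livers (vertical axis) for each gene on days 0, 1, 2 and 5 (points from light to dark, 1 array per arm) and its mean over the 4 days (dash, with the standard error of the limma fit). Every mean lies below 0, the lowest at -1.84 for Gsta2 and Gsta4, while single points of Gsta3 (day 5), Gstm1 (day 2) and Gstm2 (days 0 and 5) lie at or above 0 on the probe sets drawn, of which those of Gstm1 and of Gstm2 on day 0 turn below 0 with quantile normalization and that of Gsta3 with the mean of probe sets.

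By day, MET KO + EGFRi was below control for 9 of 10 genes on day 0 (all but Gstm2), 10 on day 1, 9 on day 2 (all but Gstm1) and 8 on day 5 (all but Gsta3 and Gstm2), where 53.2%, 49.2%, 47.7% and 51.3% of all genes were. With quantile normalization the counts of days 0 and 2 were 10 of 10, and with the mean of a gene's probe sets Gstm1 was below 0 on day 2 and above on day 5 (0.037) and Gsta3 below on day 5 (-0.015). Gsta2, Gsta4 and Gstt3 were at least 2-fold lower on day 0, Gsta4 and Gstm6 on day 1, and Gsta2, Gsta4, Gstm2 and Gstm6 on day 2, against 2.18%, 2.63% and 2.03% of all genes. On day 5 no member was 2-fold lower, against 2.16% of all genes. The median log2 difference of the members was -0.87, -0.51, -0.71 and -0.39 on the 4 days. The lowest difference fell on day 0 for 6 of 10 genes, as it did for 26.8% of all genes.

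An interaction term asked whether the change from day 0 after TCPOBOP, called the response here, differed between the arms. The fit left 2 residual degrees of freedom. Limma called 0 of 12112 genes, among them 0 members, and at an unadjusted p under 0.05 there were 251 genes with a larger response in MET KO + EGFRi (2.07%) and 292 with a smaller one (2.41%). Gstt3 had the smallest p of the family, with a response larger by 1.50 on the log2 scale in MET KO + EGFRi than in control (unadjusted p = 0.00174, adjusted p = 0.658). Gsta2 followed with 2.09 (unadjusted p = 0.0169, adjusted p = 0.999) and Gsta4 with 1.20 (unadjusted p = 0.0646, adjusted p = 0.999). The Gsta2 value rests on a day 0 signal of 157.5 in MET KO + EGFRi, below that array's median. The probe set shared by Gsta2, Gsta1 and Gm3776 had 0.63 when tested by itself (limma unadjusted p = 0.434). The interaction was positive for 6 of 10 members and for 53.7% of all genes. It rests on 1 day 0 array in each arm, so a larger response and a lower starting array cannot be told apart.

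Genes with several probe sets showed how far 1 gene's values depend on the probe set. The second Gstm3 probe set, 1427473_at, had 215, 4669, 2634 and 11777 in MET KO + EGFRi livers, against 612, 14236, 18628 and 16082 in control livers. It gave log2 differences between the arms of -1.26, -1.59, -2.79 and -0.45 on the 4 days, where 1427474_s_at gave -0.85, -0.40, -0.43 and -0.17. Both were called higher after TCPOBOP when probe sets were tested singly, by 4.40 (adjusted p = 0.00512) and 3.06 (adjusted p = 4.73e-04), and neither was called between the arms (mean differences of -1.52 and -0.46, adjusted p = 0.139 and 0.312). The day 0 signal of 1427473_at in MET KO + EGFRi was below its array's median, so no fold over it is given.

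Gstm1 had 4 probe sets, which fell into 2 pairs on days 2 and 5 alone. The probe sets 1416416_x_at and 1448330_at were lower in MET KO + EGFRi on day 0 (-0.76 and -0.87) and higher on day 2 (0.22 and 0.17). The probe sets 1425626_at and 1425627_x_at were instead lower on day 2 (-0.84 and -0.76) and higher on day 5 (0.29 and 0.31), but stood apart on day 0 (-0.42 and 0.17) and on day 1 (-0.53 and -1.10). None of the 4 was called between the arms, and 1448330_at was called higher after TCPOBOP (1.51, adjusted p = 0.0463). Over all 16 probe sets, 2 were called lower between the arms (0.12% of 22519 probe sets), Gstm6's and the shared one, and 6 higher after TCPOBOP (0.244%). Gsta4, called in the fit of genes, had an adjusted p of 0.0549 in the fit of single probe sets. Probe sets ending in _s_at or _x_at can bind transcripts of relatives, and the mu genes are close relatives, so their values are uncertain as values of 1 gene.

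**Figure D4:**
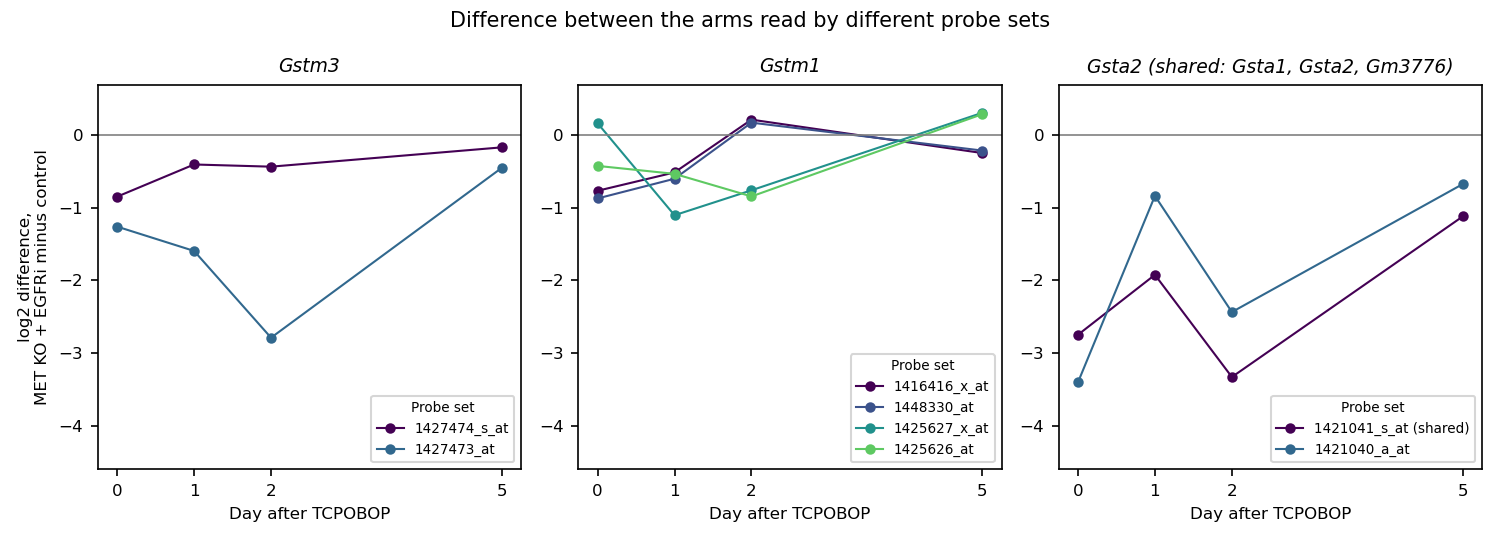
Log2 difference between MET KO + EGFRi and control livers (vertical axis) by day (horizontal axis) for the probe sets of Gstm3, Gstm1 and Gsta2, 1 array per arm and day. The 2 Gstm3 probe sets stand furthest apart on day 2 (-2.79 and -0.43), the Gstm1 probe sets split into 2 pairs on days 2 and 5, and those of Gsta2 and of the shared set stay below 0 on every day.

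The members' genes lie in 3 clusters and 1 place alone. In RefSeq's gene order (GRCm38.p6) Gstm6, Gstm3, Gstm2, Gstm1 and Gstm4 follow each other on chromosome 3, after Gstm5 and Gstm7. Gstt3 and Gstt1 adjoin on chromosome 10, before Gstt4 and Gstt2. Gsta4 and Gsta2 lie on chromosome 9 with Gsta1 between, and Gsta3 lies on chromosome 1. Neighbours did not all move alike: Gstm5 and Gstm7 had log2 differences after TCPOBOP of 0.16 and 0.06 (limma adjusted p = 0.813 and 0.939), in the cluster of Gstm3 at 3.06, and Gstm6, which adjoins Gstm7, had 0.88 and was not called. Gstt2 had 0.07 (0.959), in the cluster of Gstt3 at 2.40. Between the arms Gstm5 had -0.23 and Gstm7 -0.39 (0.589 and 0.305), where Gstm6 had -1.12.

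Over the 8 arrays the log2 signals of any 2 members correlated positively, with Pearson's r from 0.58 (Gsta2 and Gstm2) to 0.98 (Gstt1 and Gstt3) and a median of 0.75 over the 45 pairs. The median was 0.74 over the 14 pairs within a class and 0.78 over the 31 pairs between classes. Gstm3 followed the theta genes closely (0.97 with Gstt1, 0.96 with Gstt3), and Gstm6 followed Gsta4 (0.94). All such values share the 8 arrays with their 2 arms and 4 days, and are given as a description.

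Genes outside the family with the most similar pattern were found for each class by Pearson's r with the mean centred profile over the 8 arrays. For the alpha class they were Polr3gl, Slc16a12, Ccnd1, Blm and Dapk2, with r from 0.96 to 0.98. Ccnd1, the cyclin that drives cells out of G1, had 1232, 3172, 3571 and 4264 in MET KO + EGFRi livers on the 4 days, against 4553, 6318, 6381 and 5647 in control livers. For the mu class they were the chemokine Ccl9, Ephx1, Ugt2b34, Pdxdc1 and Pepd (0.98 to 0.99), and for the theta class Pdxdc1, Gorasp1, Ces2a, Cyp1a2 and Glrx5 (0.96 to 0.98). Ccl9 had 1901, 7567, 8283 and 14691 in MET KO + EGFRi, against 3415, 18704, 24564 and 16613 in control.

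Of the other transferase genes listed, 10 of 18 were measured above the filter, and 0 were called in either comparison by limma. Between the arms 5 were lower and 5 higher (median log2 difference 0.01), and Gstm7, which had an unadjusted p under 0.05 along with Gstp3, had 2104, 1760.1, 2054 and 1913 in MET KO + EGFRi livers across days 0, 1, 2 and 5, against 2242.5, 2420.1, 2979 and 2719.7 in control livers. After TCPOBOP 7 were higher and 3 lower (median 0.06), with the largest difference in Gstp1, of the pi class, at 0.76 (adjusted p = 0.164). The membrane-bound Mgst1 had 0.41 and the mitochondrial and peroxisomal Gstk1 -0.43. The members' medians were -0.56 and 1.43 in the same comparisons. Members and lists were chosen with earlier results of these data known, so the choice itself can have set these medians apart.

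Around the transferases, the genes that make and recycle glutathione were measured for 14 of 17. Between the arms 10 were higher and 4 lower in MET KO + EGFRi (median 0.08), and 1 was called, Ggct, whose enzyme breaks down gamma-glutamyl peptides in glutathione turnover. Ggct had 793.5, 875, 790.0 and 728 in MET KO + EGFRi livers across days 0, 1, 2 and 5, against 299.5, 249.8, 290.1 and 325 in control livers. All 4 MET KO + EGFRi arrays were above all 4 control arrays. Ggct was higher in MET KO + EGFRi by 1.26 on the log2 scale (standard error 0.15, limma adjusted p = 0.0144), opposite in sign to the 10 transferases. Its control signals lay near the medians of their arrays (250.6, 238.2, 224.2 and 243.2), so the size of this difference is uncertain. Gclc, the catalytic subunit of the rate-limiting step of glutathione synthesis, had -0.69 (adjusted p = 0.232), Chac1 0.75 and Cbs 0.53 (0.213 and 0.382). After TCPOBOP none of the 14 was called (median 0.21).

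Export of conjugates and the steps to mercapturates were measured for 9 of 13 genes. The efflux pumps Abcc4 and Abcc3, which carry conjugates out of the hepatocyte, rose after TCPOBOP, by 3.17 and 1.53 on the log2 scale (limma adjusted p = 0.00457 and 0.0179), and no gene of the list was called between the arms (median -0.03). Abcc4 had 124, 1384, 1190.5 and 1348 in MET KO + EGFRi livers across days 0, 1, 2 and 5, against 26.1, 629, 1282 and 1384 in control livers. Both of its day 0 signals were below the median of their array (239.3 and 250.6), so the size of its rise is uncertain. NRF2 targets were measured for 15 of 20, with 13 higher after TCPOBOP and 2 of these called, Abcc4, which both lists hold, and the epoxide hydrolase Ephx1 (1.24, adjusted p = 0.0192). Their median was 0.29, Nqo1, a standard NRF2 target, had 0.53 (adjusted p = 0.543), and between the arms 7 were higher and 8 lower, none called.

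CAR targets were measured for 19 of 24, all 19 higher after TCPOBOP and 12 called, with a median of 1.53. The 12 include Abcc3 and Ephx1, which are also on the lists above. The largest were Cyp2b10 (6.38), Cyp2c55 (5.16) and Ces2a (3.62). Between the arms 14 of the 19 were lower in MET KO + EGFRi, where 49.6% of all genes were, and 5 were higher. None was called (median -0.33, against -0.56 for the transferases). They ran from -0.69 for Cyp2c55 to 0.13 for Slco1a4, and Cyp2b10 had -0.08 (limma adjusted p = 0.849). Nr1i3, which encodes CAR, had 1408.5, 863, 790.0 and 1708.5 in MET KO + EGFRi livers across days 0, 1, 2 and 5, against 3141, 2065, 1783.5 and 1887 in control livers. It was lower in MET KO + EGFRi on each day and not called (-0.89, standard error 0.19, limma adjusted p = 0.131). Nfe2l2 and its inhibitor Keap1 had -0.06 and -0.01, and the pregnane X receptor Nr1i2 had 0.04. The liver factors Cebpb and Hnf4a had 0.74 and 0.64 (adjusted p = 0.127 and 0.176). Pericentral genes, which mark the zone around the central vein, were measured for 13 of 14, with 7 higher and 6 lower in MET KO + EGFRi and none called (median 0.02). After TCPOBOP 2 of these 13 were called higher, Cyp1a2 (1.99) and Lect2 (1.17). Cyp1a2 is also among the called CAR targets.

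**Figure D5:**
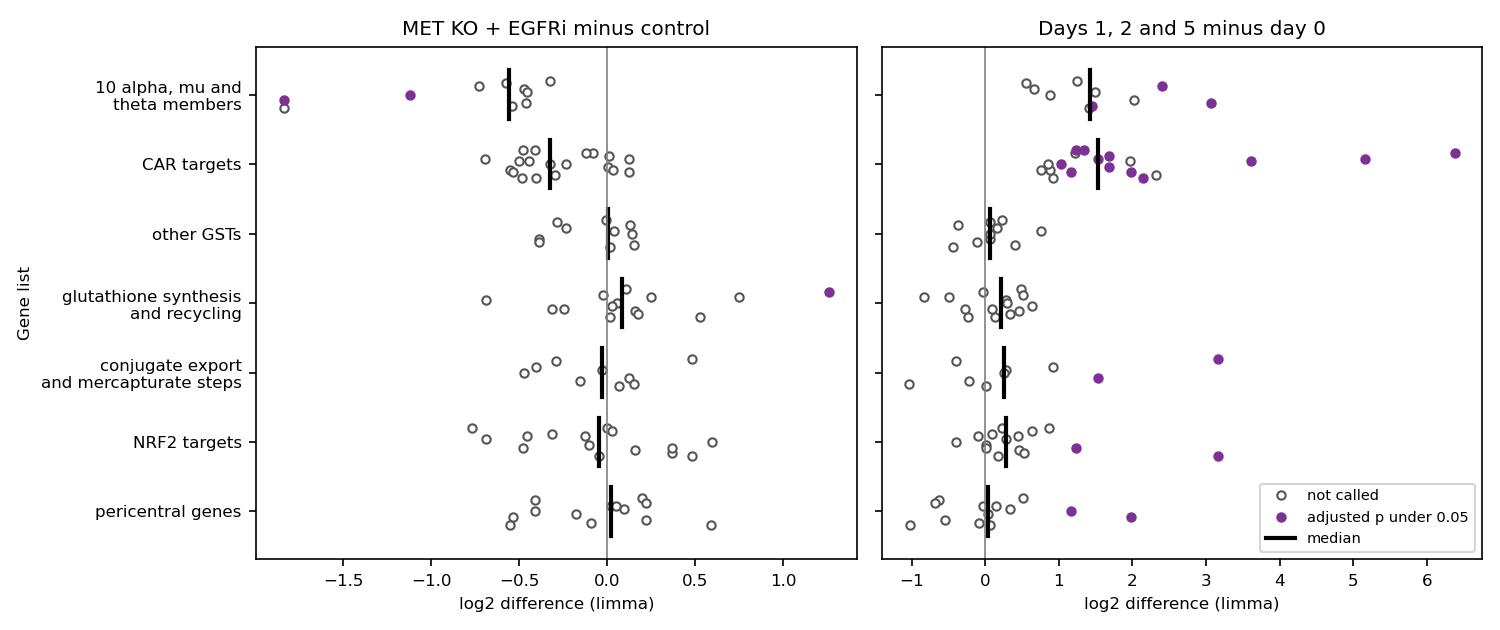
Limma log2 difference of each measured gene of the transferase family and of 6 other lists between MET KO + EGFRi and control livers (left) and between days 1, 2 and 5 and day 0 (right), with filled points for genes called at an adjusted p under 0.05 and a bar for each median. The family's median is the lowest of the lists between the arms (-0.56, next CAR targets at -0.33), and after TCPOBOP it stands beside that of the CAR targets (1.43 and 1.53) while the other lists lie between 0.04 and 0.29. Members and lists were chosen with earlier results of these data known, so the order of the medians is a description only.

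Markers of other liver cells differed between the arms beside these results. Sums were taken over all markers of a list on the array, those below the filter on dim genes included. Neutrophil markers (6 of 8 on the array, 5 above the filter) summed to 5866 to 6371 in MET KO + EGFRi and 2834 to 3139 in control. The sum was carried by S100a8 and S100a9, called higher in MET KO + EGFRi (1.95 and 1.69, limma adjusted p = 0.00224 and 0.00506). Mpo, Ngp and Elane had 0.40, 0.42 and 0.01 and were not called. Kupffer cell markers (8 of 8, all above the filter) summed to 21684 to 38015 in MET KO + EGFRi and 10918 to 25221 in control, and stellate cell markers (6 of 6, 4 above the filter) to 9041 to 12488 in MET KO + EGFRi and 6563 to 7528 in control. Of the 8 Kupffer cell markers all were higher in MET KO + EGFRi (median log2 difference 0.65), and 1, Cd5l, was called (0.95, limma adjusted p = 0.0468). The stellate sum was carried by Dcn, called higher in MET KO + EGFRi (1.00, limma adjusted p = 0.0298). The other 3 markers above the filter were lower and not called (median of the 4, -0.08). No marker on the array was listed at 0 in these lists. Sums of endothelial (6 of 6 on the array), cholangiocyte (4 of 5), lymphocyte (3 of 4) and erythroid markers (2 of 4) overlapped between the arms. The hepatocyte sum at day 0 was 281429 in MET KO + EGFRi and 264378 in control. Of the 10 hepatocyte markers 9 were higher and 1 lower in MET KO + EGFRi (median log2 difference 0.14, 0 called). The part of hepatocyte number or of these other cells in the differences of the transferases was not tested.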

How the data were processed

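RNA of pooled livers, 6 µg per array, was hybridised to Affymetrix mouse arrays, per the labels' protocols. The deposited values are intensity values, computed and scaled by the authors with MAS5 per the submitters' processing notes, and its version is not given in the sources used here. They are linear, uncentred, and have a mean of 500 in each array after trimming 2% at each end. Such scaling removes any change of total RNA shared by all genes.

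From the 45101 probe sets, 64 controls were left out. Log2 values were computed from the deposited intensities after adding 71, the lower quartile of all signals, which understates folds of weak genes. The platform's table gave 1 gene to 34945 of the other 45037 probe sets, several genes to 932 and did not list 9160. Where a gene had several probe sets, the brightest on average stood for it, and genes with an average log2 value under 8.24, the median over probe sets, were dropped. Limma 3.58.1 in R 4.3.3 fitted arm and day (3 residual degrees of freedom) with a variance trend, Benjamini-Hochberg over all 12112 genes kept, and an adjusted p under 0.05 counted as a call. With arm and day in the fit, these p-values rest on how unevenly the gap between the arms ran over the days. They do not measure the spread between animals. The fits were tested on simulated data. Promoters were searched with Python 3.11.15.

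All 10 members were named, and from other lists up to 4 genes with the largest change and the regulators Nr1i3, Nr1i2, Nfe2l2, Keap1, Cyp2b10, Cebpb and Hnf4a. Genes of like pattern were the 5 with the highest r per class. Met, Nqo1 and the neighbours Gstm5, Gstm7 and Gstt2 were added after their values were seen. The members and lists were chosen with earlier results of these data known.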

Additional observations from a re-analysis of the deposited data

How the results depend on the processing

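No called difference changed its direction under the alternatives run. Among values with no test, the day 2 difference between the arms of Gstm1, 0.22 as deposited, was below 0 with quantile normalization (-0.34) and with the mean of its probe sets, and that of Gstm2 on day 0, near 0 as deposited, was below 0 with quantile normalization. On day 5 the mean of probe sets turned Gsta3 (0.08) to -0.015 and Gstm1 (-0.24) to 0.037. The number of genes called between arms was 70, and 28 without the filter on dim genes, and 20 to 57 when 1 array or 1 day was left out. The number of members called lower between arms was 2, and 1 with a pseudocount of 1, with the mean of a gene's probe sets or without a variance trend, 0 without the filter or without a term for day, and 0 to 2 with arrays or days left out. Gsta4 was called in 5 and Gstm6 in 8 of 10 alternatives that kept all arrays. The number of genes called after TCPOBOP was 59, and 26 without the filter, 35 with the mean of probe sets, 34 without a trend, and 4 to 49 with 1 array left out. The number of members called higher after TCPOBOP was 3, and 5 with the filter at the upper quartile or with median centring, and 1 to 4 with 1 array left out. Without the filter more genes enter the adjustment. For the other settings the cause was not tested. The interaction called 0 genes in each fit run, and a fit without a day 0 array gives no interaction. With quantile normalization the log2 change of Gstm1 from day 0 to day 5 was 1.44 in MET KO + EGFRi and 0.62 in control, against 1.89 and 1.37 as deposited. No paired analysis by replicate number was possible because each group has 1 array. The arms were paired by day through the day term of the fit, and without it 0 members were called. With 1 pooled array per arm and day, a small difference may be missed, and no spread between animals can be had.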
